A study of Mus musculus with 6 samples.

Results

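Receptors for interleukins and for the colony-stimulating factors GM-CSF and G-CSF were examined in LT-HSCs (long-term haematopoietic stem cells), bone marrow cells that maintain all blood lineages. Genes were taken by name: every symbol that starts with Il, a number and r, the symbols that start with Csf2r or Csf3r, and Il6st. This gave 44 of the 26776 genes of the deposited table, with 43 symbols, because Il11ra2 is listed at 2 loci. Il1rn also matches the rule although it encodes a secreted antagonist and not a receptor.

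Trim47+/eGFP mice were the source of the bone marrow cells; in them, as the genotype name reads, 1 allele of the ubiquitin ligase gene Trim47 carries green fluorescent protein (eGFP). All libraries share this genotype. LT-HSCs were sorted into an eGFPlo and an eGFPhi group, with 3 RNA-seq libraries each, and no treatment, time course or wild-type group was analysed here. For the sorting gate, the age and sex of the mice and the animals per library, the sources used here give nothing. The p-values therefore measure only the spread between these samples, which may be technical.

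Most of these receptors are built from 2 kinds of chain: one that recognises a particular ligand, and one that is shared between several ligands and passes the signal on. The common gamma chain (Il2rg), the common beta chain (Csf2rb) and gp130 (Il6st) signal through JAK kinases and STAT factors, whereas receptors of the IL-1 and IL-17 families use cytoplasmic adaptor proteins. In blood formation, IL-7 receptors are known for lymphoid progenitors, G-CSF and GM-CSF receptors for myeloid progenitors, and IL-1 and IL-6 type receptors for the response of stem and progenitor cells to inflammation.

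Levels are CPM, read counts per library scaled to a common size with TMM factors, as mean ± SD over n = 3 libraries. Fold changes compare eGFPhi with eGFPlo and carry a standard error (SE) in log2 units. The p-values come from edgeR's quasi-likelihood test with Benjamini-Hochberg adjustment over 18081 tested genes. A gene was called at an adjusted p under 0.05. Library totals ran from 11221070 to 26058391 counts, so that 3 counts in 1 library equal 0.115 to 0.267 CPM. Trim47, the gene of the reporter, stood at 7.28, 8.18 and 8.92 CPM in eGFPlo and at 21.6, 26.2 and 23.3 CPM in eGFPhi, in the direction of the sort labels. All 9 stem cell markers were higher in eGFPhi and present in both groups, with sums of 663 to 688 CPM in eGFPlo and 1732 to 1926 CPM in eGFPhi. All 6 markers of granulocyte-monocyte progenitors were lower, from 5220 to 5324 CPM in eGFPlo to 280 to 288 CPM in eGFPhi, led by Mpo. In such bulk libraries, fewer cells of a type and less RNA per cell cannot be told apart.

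Of the 44 genes, 41 passed the filter on low counts and 3 did not (Il1rapl1, Il17rd and Il20ra). Among the 41, 13 were higher and 21 lower in eGFPhi, and 7 were not past the threshold. Beside this, 64.0% of all genes tested were called, 32.3% higher and 31.7% lower. Counts for families and for marker lists are to be read beside the same shares. The higher calls made up 31.7% of the receptor genes, close to that background, and the lower calls 51.2%. At least 2-fold changes were found for 5 higher and 11 lower receptor genes, where 12.9% and 9.57% of all genes reached that size. The groups did not overlap for 35 of the 41, against 69.8% of all genes. The median log2 fold change was -0.37 for the receptor genes, also with genes of at most 3 counts in a group set to their bounds, and 0.00 for all genes. An assumed biological coefficient of variation of 0.2 was also used in place of the small spread between these libraries. With it, 11 receptor genes were higher and 14 lower, beside 20.1% and 16.5% of all genes. Calls of receptor genes lost or gained under it are given with each gene. Exons of 11 of the 41 overlap those of another gene, by more than 500 bp for Il2rg, Il4ra, Il10rb and Il12rb2. The summed level of the 44 receptor genes was 963 to 1012 CPM in eGFPlo and 812 to 842 CPM in eGFPhi.

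**Figure D1:**
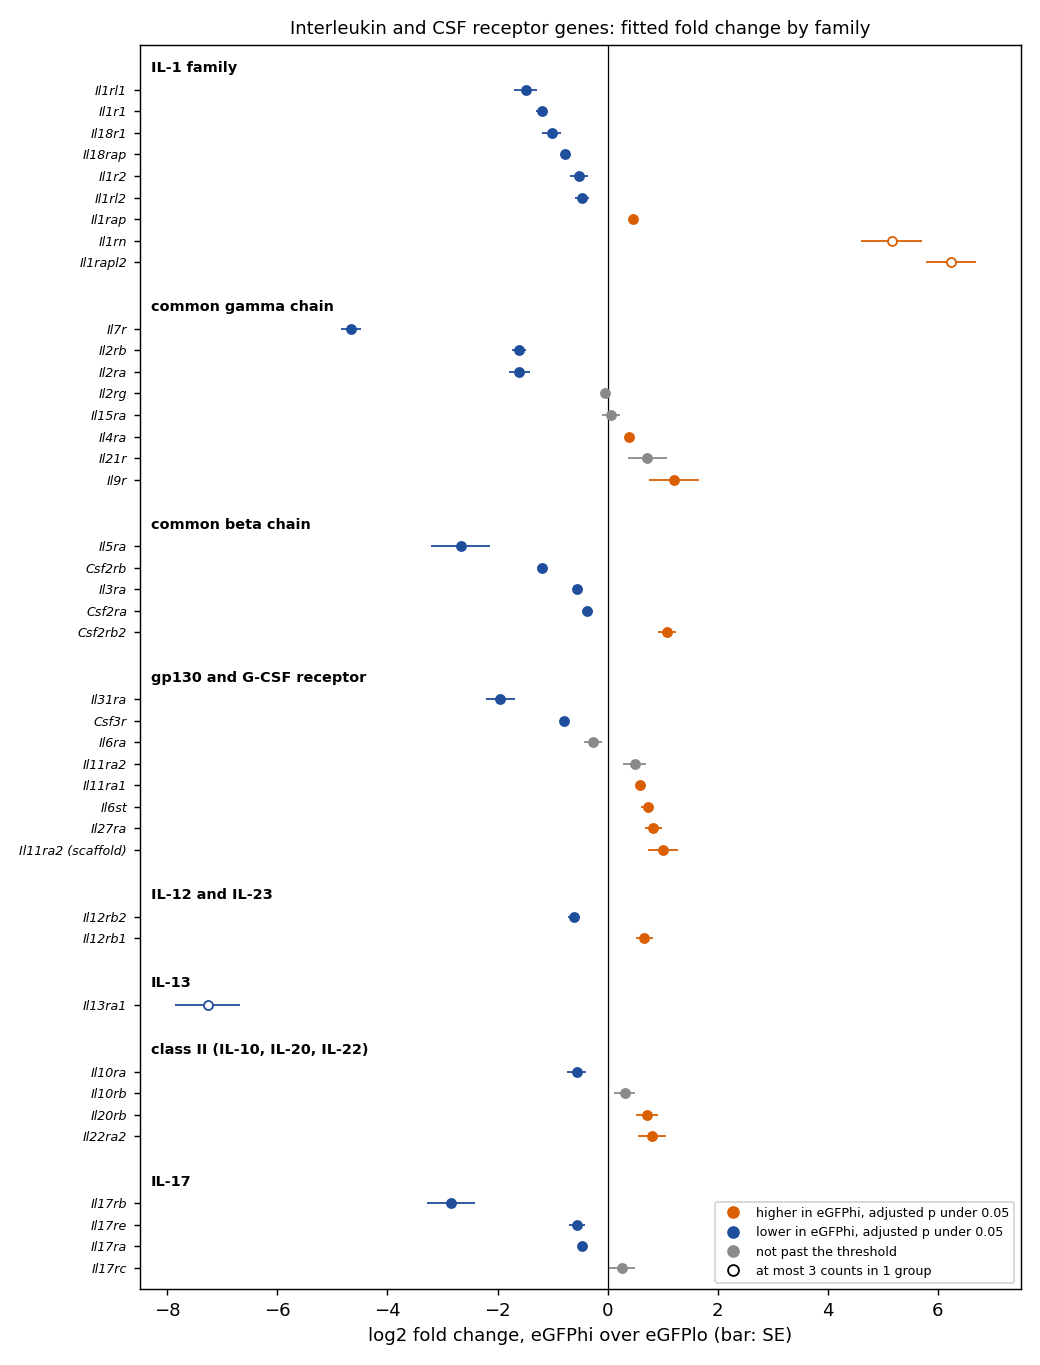
Fitted log2 fold change of eGFPhi over eGFPlo (x axis, bars: SE) for the 41 tested receptor genes, grouped by family; orange points are higher, blue points lower and grey points not past an adjusted p of 0.05. Open points have at most 3 counts in 1 group, so their fitted value depends on the prior count; Il7r is the lowest of the filled points.

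The common gamma chain family held the largest fall among receptors counted in every library. Il7r (ENSMUSG00000003882, GRCm38 chromosome 15, 9505788 to 9530176, minus strand) encodes the ligand-binding chain for IL-7, a growth factor of lymphoid progenitors. It stood at 20.05, 18.1 and 20.4 CPM in eGFPlo and at 0.623, 0.999 and 0.565 CPM in eGFPhi. Every eGFPhi library lay far below every eGFPlo library. The mean fell from 19.5 ± 1.25 to 0.729 ± 0.236 CPM, 25.3-fold lower (log2 fold change -4.66, SE 0.18, adjusted p = 8.53e-07).

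Markers of early lymphoid cells moved with Il7r. All 4 on the list (Dntt, Rag1, Rag2, Blnk) were lower, and their sum was 330 to 345 CPM in eGFPlo against 4.16 to 4.81 CPM in eGFPhi, with Rag2 at 0 in every eGFPhi library. All 8 B cell markers were lower too, with sums of 417 to 430 against 14.2 to 17.2 CPM and Igll1 at 0 in eGFPhi. The part of such cells in the Il7r difference was not tested.

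The RefSeq promoter of Il7r runs from 250 bases before to 50 after the start (GRCm38.p6, chr15:9529827-9530126, minus strand). It is shown because it holds a match to the STAT-type pattern TTCNNNGAA, in capitals, that starts 142 bases before this RefSeq start. The whole window lies inside the span of Il7r given above, so the match is downstream of where that gene model begins.
Il7r promoter: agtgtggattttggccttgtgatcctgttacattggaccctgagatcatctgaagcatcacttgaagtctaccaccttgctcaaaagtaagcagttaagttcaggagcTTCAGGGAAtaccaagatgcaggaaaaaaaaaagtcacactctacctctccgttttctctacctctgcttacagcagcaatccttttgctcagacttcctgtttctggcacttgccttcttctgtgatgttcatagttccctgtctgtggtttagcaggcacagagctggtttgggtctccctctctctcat

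The chains of the IL-2 receptor fell as well. Il2rb, the signalling beta chain for IL-2 and IL-15, was 7.97, 8.46 and 7.42 CPM in eGFPlo and 2.31, 2.73 and 2.62 CPM in eGFPhi, without overlap. It was 3.07-fold lower (log2 fold change -1.62, SE 0.13, adjusted p = 2.60e-05). Il2ra, the alpha chain that raises affinity for IL-2, was near 2 CPM in eGFPlo (1.8, 1.89 and 2.10) and at 0.623, 0.615 and 0.668 CPM in eGFPhi, 3.03-fold lower (adjusted p = 0.000248). Among 7 tested T and NK cell markers of 11 listed, 1 was higher and 5 were lower, and the listed genes summed to 69.1 to 71.3 CPM in eGFPlo and 15.5 to 18.4 CPM in eGFPhi. Of the 11, 4 averaged under 1 CPM over all 6 libraries and 1 averaged at least 10 CPM. Cd3d, Cd3e, Cd3g, Cd8a and Trbc2 were at 0 in eGFPhi. Their part in the Il2rb and Il2ra differences was not tested.

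The shared chain of this family did not follow Il7r or Il2rb. Il2rg was 65.1, 67.7 and 65.0 CPM in eGFPlo and 67.6, 61.2 and 62.9 CPM in eGFPhi, and the groups overlapped (log2 fold change -0.05, SE 0.05, adjusted p = 0.420). Its exons share 728 bp with the gene Gm20489 on the same strand. Per kilobase of merged exons, Il2rg stood at 27.6 CPM in eGFPlo and 26.8 CPM in eGFPhi. Il7r went from 4.19 to 0.156 CPM per kilobase, so the ratio of Il2rg to Il7r moved from 6.22 to 7.30 across eGFPlo libraries to 120 to 217 across eGFPhi libraries.

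Il4ra, the chain that binds IL-4 and pairs with Il2rg, went the other way. It was 61.3, 65.8 and 60.02 CPM in eGFPlo and 87.3, 79.9 and 79.1 CPM in eGFPhi, 1.31-fold higher and without overlap (log2 fold change 0.39, SE 0.06, adjusted p = 0.000516). With the assumed coefficient its adjusted p was 0.194, and its exons share 571 bp with Gm44876 on the other strand. Il15ra, which presents IL-15, ranged from 11.7 to 14.5 CPM in eGFPlo and from 10.7 to 15.6 CPM in eGFPhi and was not past the threshold (adjusted p = 0.745). Il21r, the IL-21 receptor, was 15.4, 6.08 and 11.7 CPM against 11.04, 19.1 and 23.3 CPM, with wide spread and overlap (log2 fold change 0.72, SE 0.35, adjusted p = 0.112; without eGFPhi replicate 1, 0.0417, and with the assumed coefficient, 0.0165). Il9r, the IL-9 receptor, was at most 1.34 CPM in any library and 2.31-fold higher in eGFPhi (adjusted p = 0.0471), a call that was lost without any 1 of 5 libraries (eGFPlo replicate 2 or 3 or any eGFPhi library; adjusted p 0.0554 to 0.140) and in DESeq2 (0.161).

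The common beta chain family serves IL-3, IL-5 and GM-CSF, and mice carry a pair of beta chain genes. Csf2rb encodes the chain shared by all 3 ligands, and Csf2rb2 encodes its IL-3-specific relative. They lie head to head on chromosome 15 with a gap of 20.03 kb: Csf2rb (ENSMUSG00000071713) spans 78325752 to 78353847 on the plus strand and Csf2rb2 (ENSMUSG00000071714) spans 78282507 to 78305721 on the minus strand. Their levels moved in opposite directions.

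Csf2rb was 44.2, 52.4 and 42.2 CPM in eGFPlo and 19.0, 20.7 and 20.8 CPM in eGFPhi. All eGFPhi libraries lay below all eGFPlo libraries, and the gene was 2.29-fold lower (log2 fold change -1.19, SE 0.09, adjusted p = 2.45e-05). Csf2rb2 was 6.0, 8.95 and 7.31 CPM in eGFPlo and 13.8, 17.8 and 15.4 CPM in eGFPhi. Here all eGFPhi libraries lay above, 2.12-fold higher (log2 fold change 1.08, SE 0.16, adjusted p = 0.000698). Per kilobase of merged exons, Csf2rb fell from 6.36 to 2.77 CPM and Csf2rb2 rose from 1.56 to 3.30 CPM. On this scale the order of their means changed between the groups. That change depends on the merged exon lengths of 7277 and 4740 bp. In CPM, the eGFPhi mean of Csf2rb (20.1) stayed above that of Csf2rb2 (15.7).

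The 2 coding sequences, built from the annotated coding exons of GRCm38, are 2688 and 2634 bases long and differ at 125 of 2628 aligned bases (95.2% identity). The longest identical stretch is 242 bases, and 26.03% of the 50-base words of Csf2rb and 26.6% of those of Csf2rb2 occur in the other coding sequence. The sources used here do not say how reads that fit both genes were counted, so both values are uncertain to that extent. A 60-base window with 13 differences, in capitals, shows where reads can tell the genes apart (coding bases 304 to 363 of Csf2rb and 307 to 366 of Csf2rb2).
Csf2rb coding window: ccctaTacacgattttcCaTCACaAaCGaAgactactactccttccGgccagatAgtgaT
Csf2rb2 coding window: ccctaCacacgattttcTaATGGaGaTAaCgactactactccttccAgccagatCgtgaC

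The promoter of Csf2rb2 (RefSeq, GRCm38.p6, chr15:78305672-78305971, minus strand) is shown because it alone, among the 12 promoters found for higher receptor genes, holds a match to TTCNNNGAA; none was found for Il12rb1, Il22ra2 and Il27ra. Capitals mark that match, 15 bases before the start, and 2 matches to GAGGAA on the opposite strand (read as TTCCTC), 167 bases before and 29 bases after the start.
Csf2rb2 promoter: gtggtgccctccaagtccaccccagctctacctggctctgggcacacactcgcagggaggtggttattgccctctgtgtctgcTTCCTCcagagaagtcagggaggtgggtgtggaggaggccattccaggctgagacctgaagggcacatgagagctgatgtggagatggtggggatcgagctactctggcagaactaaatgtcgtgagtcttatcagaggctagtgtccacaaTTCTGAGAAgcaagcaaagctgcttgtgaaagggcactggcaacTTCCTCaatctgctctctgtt

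The ligand-binding chains that pair with Csf2rb were all lower in eGFPhi. Il3ra, the IL-3 receptor alpha chain, was 12.9, 12.9 and 13.8 CPM in eGFPlo and 8.99, 9.38 and 8.73 CPM in eGFPhi, 1.46-fold lower without overlap (adjusted p = 0.000958, and 0.0753 with the assumed coefficient). Csf2ra, the GM-CSF receptor alpha chain, was 35.9, 45.5 and 42.7 CPM against 27.9, 34.5 and 33.4 CPM, 1.29-fold lower (adjusted p = 0.0193). Its groups were separated by a narrow gap, and the adjusted p was 0.0634 without eGFPlo replicate 2, 0.0564 without eGFPlo replicate 3 and 0.236 with the assumed coefficient. Il5ra, the IL-5 receptor alpha chain of eosinophils and basophils, was 1.97, 2.31 and 3.16 CPM in eGFPlo and 0, 0.692 and 0.257 CPM in eGFPhi, 6.35-fold lower (log2 fold change -2.67, SE 0.54, adjusted p = 0.00336). Without eGFPhi replicate 2 the log2 fold change of Il5ra was -3.90 (adjusted p = 0.00166). Of 4 eosinophil markers 3 were lower and 0 higher (sums of 96.1 to 105 CPM and 25.9 to 28.7 CPM), and all 6 tested mast cell and basophil markers of the list were lower (64.3 to 80.7 CPM and 13.8 to 14.9 CPM, Cma1 at 0 in eGFPhi). Their part in the Il5ra difference was not tested.

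In the IL-1 family, 9 genes were tested, of which 3 were higher and 6 lower. The 6 lower genes are neighbours on chromosome 1 (40074079 to 40551705, a span of 478 kb, all on the plus strand): Il1r2, Il1r1, Il1rl2, Il1rl1, Il18r1 and Il18rap. Il1r1, the signalling receptor for IL-1, was 38.6, 46.1 and 43.9 CPM in eGFPlo and 20.6, 16.7 and 19.2 CPM in eGFPhi. The groups were far apart, and the gene was 2.30-fold lower (log2 fold change -1.20, SE 0.10, adjusted p = 3.34e-05). Il1rl1, the IL-33 receptor chain ST2 of mast cells and type 2 lymphoid cells, was 6.34, 5.45 and 6.48 CPM against 2.31, 1.58 and 2.72 CPM, 2.81-fold lower (log2 fold change -1.49, SE 0.21, adjusted p = 0.000565). The mast cell and basophil markers moved with it, with the sums given for Il5ra, and their part was not tested here either.

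Both chains of the IL-18 receptor were lower. Il18r1, which binds IL-18, was 7.97, 11.9 and 10.9 CPM in eGFPlo and 4.36, 5.23 and 5.55 CPM in eGFPhi, 2.02-fold lower (adjusted p = 0.00138). Il18rap, its accessory chain, was 50.1, 54.4 and 51.7 CPM against 27.3, 31.7 and 31.3 CPM, 1.72-fold lower (log2 fold change -0.78, SE 0.07, adjusted p = 4.82e-05). Neither gene's groups overlapped, and the ratio of Il18rap to Il18r1 per kilobase ranged from 3.27 to 4.49 in eGFPlo and from 4.03 to 4.47 in eGFPhi.

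The smallest falls of the cluster were those of the decoy receptor Il1r2 and of the IL-36 receptor chain Il1rl2. Il1r2 was 3.51, 4.61 and 3.93 CPM in eGFPlo and 2.40, 3.00 and 2.93 CPM in eGFPhi, 1.43-fold lower (adjusted p = 0.0249). That call was lost in DESeq2 (adjusted p = 0.134), with the assumed coefficient (0.146) and without eGFPlo replicate 2 or 3 or eGFPhi replicate 1 or 3 (0.0514 to 0.0805). Il1rl2 was 8.65, 10.1 and 11.6 CPM against 6.94, 7.45 and 7.55 CPM, 1.38-fold lower (adjusted p = 0.0134, and 0.149 with the assumed coefficient).

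The neighbourhood of the cluster was looked at after the values of its genes were seen. Within 500 kb of it 7 other genes were tested, of which 5 were lower and 2 higher. Among the lower ones, Gm37347 lies inside the span of Il1r2 and Gm38070 inside that of Il1r1, and the others were Rnf149, Map4k4 and Slc9a2. Gm17970, inside the span of Il1rl2, and Mfsd9 were the higher ones. Across the 6 receptors the median log2 fold change was -0.90, and beside the count of 6 of 6 stands the 31.7% of all genes called lower.

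**Figure D2:**
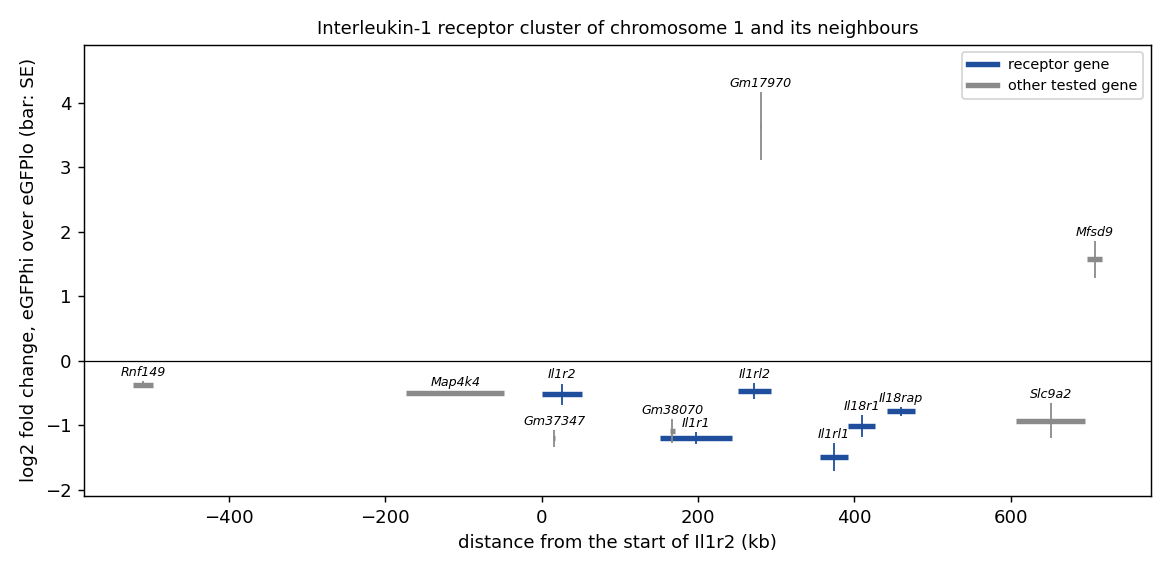
Log2 fold change of eGFPhi over eGFPlo (y axis, bars: SE) against the distance in kb from the start of Il1r2 (x axis) for the 6 receptor genes (blue) and 7 other tested genes within 500 kb (grey); horizontal bars span each gene. All 6 receptor genes lie below 0, as do 5 of the 7 others.

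The promoter of Il18rap (RefSeq, GRCm38.p6, chr1:40515112-40515411, plus strand) is printed as that of the most abundant gene of the cluster. Its capitals mark 2 matches to GAGGAA, the core of sites for the myeloid and lymphoid factor PU.1, starting 94 and 79 bases before the transcription start.
Il18rap promoter: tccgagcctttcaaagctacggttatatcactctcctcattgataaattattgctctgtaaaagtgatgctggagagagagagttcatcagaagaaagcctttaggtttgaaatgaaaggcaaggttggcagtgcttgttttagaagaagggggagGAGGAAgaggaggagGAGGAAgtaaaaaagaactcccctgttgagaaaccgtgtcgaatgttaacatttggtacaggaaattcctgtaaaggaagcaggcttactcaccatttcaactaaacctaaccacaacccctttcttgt

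The IL-1 family genes outside the cluster were higher in eGFPhi. Il1rap (chromosome 16), the accessory chain shared by the receptors for IL-1, IL-33 and IL-36, was 17.3, 16.6 and 17.2 CPM in eGFPlo and 22.9, 25.1 and 22.4 CPM in eGFPhi. The groups did not overlap, and it was 1.38-fold higher (log2 fold change 0.46, SE 0.07, adjusted p = 0.000955, and 0.134 with the assumed coefficient). Per kilobase, the ratio of Il1rap to Il1r1 was 0.202 to 0.251 in eGFPlo and 0.623 to 0.840 in eGFPhi, and that of Il1rap to Il1rl1 was 1.61 to 1.85 and 4.99 to 9.65.

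A further pair was counted almost only in eGFPhi. Il1rapl2, an X-linked relative of Il1rap known mainly from neurons, was 0, 0 and 0.166 CPM in eGFPlo and 5.43, 6.22 and 5.24 CPM in eGFPhi. That is 3 counts against 325, a ratio of 84.1 with a 95% counting interval of 28.5 to 410 (exact binomial, counting error only), and the adjusted p was 1.96e-05. All eGFPlo counts of this gene and of Il1rn fell in replicate 3, without which both are at 0 in eGFPlo. Il1rn, the secreted antagonist of IL-1, had 1 count against 61 (0.890 to 1.13 CPM in eGFPhi), a ratio of 47.4 with an interval of 8.19 to 1901 and an adjusted p of 0.000139. Il1rapl1, the closest relative of Il1rapl2, was below the filter with 0 counts in eGFPlo and 29 in eGFPhi. Against a floor of 3 counts over the group it was at least 7.505-fold higher, and it was not tested.

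The gp130 and G-CSF receptor group had 8 tested genes, of which 4 were higher, 2 lower and 2 not past the threshold. Of all genes tested, 32.3% were higher and 31.7% lower. Csf3r (ENSMUSG00000028859, chromosome 4, 126024550 to 126044440, plus strand), the receptor for the granulocyte growth factor G-CSF, had the highest level per kilobase among the receptor genes in eGFPlo, 45.8 CPM, and in eGFPhi stood at 26.4 CPM beside 26.8 CPM for Il2rg. Per library it was 163, 170 and 162 CPM in eGFPlo and 93.3, 93.6 and 98.8 CPM in eGFPhi. The libraries of a group lay close together and the groups far apart, 1.73-fold lower in eGFPhi (log2 fold change -0.79, SE 0.04, adjusted p = 1.83e-06). The granulocyte-monocyte progenitor markers fell with it, as given above, while of 8 mature neutrophil markers 3 were higher and 1 lower (sums of 167 to 173 CPM and 171 to 176 CPM). The part of such cells in the Csf3r difference was not tested.

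Il6st (ENSMUSG00000021756, chromosome 13, 112464070 to 112510086, plus strand) encodes gp130, the signalling chain shared by IL-6, IL-11, IL-27 and related ligands. It was 26.1, 34.0 and 36.3 CPM in eGFPlo and 56.3, 50.1 and 54.3 CPM in eGFPhi. Every eGFPhi value exceeded every eGFPlo value, 1.65-fold higher (log2 fold change 0.72, SE 0.11, adjusted p = 0.000954). Its promoter (RefSeq, GRCm38.p6, chr13:112463820-112464119, plus strand) is shown as an example without any of the 4 searched patterns, so no letter is capital.
Il6st promoter: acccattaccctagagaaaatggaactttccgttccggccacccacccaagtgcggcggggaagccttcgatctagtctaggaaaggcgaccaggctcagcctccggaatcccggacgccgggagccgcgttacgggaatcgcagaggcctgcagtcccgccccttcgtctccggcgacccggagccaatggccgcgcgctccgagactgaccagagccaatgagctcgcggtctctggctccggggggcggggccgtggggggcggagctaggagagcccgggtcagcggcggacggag

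The ligand-binding partners of gp130 did not move alike. Il6ra, the IL-6 receptor chain, was 37.5, 29.1 and 34.6 CPM in eGFPlo and 20.9, 29.1 and 32.8 CPM in eGFPhi, with overlap (log2 fold change -0.27, SE 0.16, adjusted p = 0.178). Il11ra1, the IL-11 receptor chain, was 31.9, 33.9 and 30.8 CPM against 47.4, 49.6 and 48.2 CPM, 1.51-fold higher (log2 fold change 0.59, SE 0.05, adjusted p = 5.45e-05). Il27ra, the IL-27 receptor chain, was 16.2, 10.7 and 15.7 CPM against 24.1, 25.1 and 26.4 CPM, 1.78-fold higher (log2 fold change 0.83, SE 0.15, adjusted p = 0.00174). Both of these rose without overlap. The ratio of Il6st to Il6ra per kilobase was 0.542 to 0.912 in eGFPlo and 1.29 to 2.09 in eGFPhi.

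The Il11ra1 value carries a reservation, since 46.3% of the 50-base words of its exons also occur in other genes, among them Il11ra2. For the chromosome 4 copy of Il11ra2 all words (100%) of the annotated gene model do, and that model lies at another position than the table gives, so its values cannot be assigned to it alone. The copy on the unplaced scaffold was not compared in this way. The chromosome 4 copy of Il11ra2 was 2.06 to 3.77 CPM in eGFPlo and 4.18 to 4.52 CPM in eGFPhi and not past the threshold (adjusted p = 0.0707, and 0.0391 without eGFPlo replicate 2). The copy on the unplaced scaffold JH584293.1 was at most 1.64 CPM and 2.01-fold higher in eGFPhi (adjusted p = 0.0149). Its call was lost in DESeq2 (adjusted p = 0.132), without eGFPlo replicate 3 (0.0606) and without eGFPhi replicate 3 (0.0526).

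Il31ra, the IL-31 receptor chain, lies 9.81 kb from Il6st on the opposite strand and moved the other way. It was 2.91, 2.94 and 2.49 CPM in eGFPlo and 0.356, 0.768 and 0.873 CPM in eGFPhi. These groups were well apart, and the gene was 3.86-fold lower (log2 fold change -1.95, SE 0.26, adjusted p = 0.00043).

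**Figure D3:**
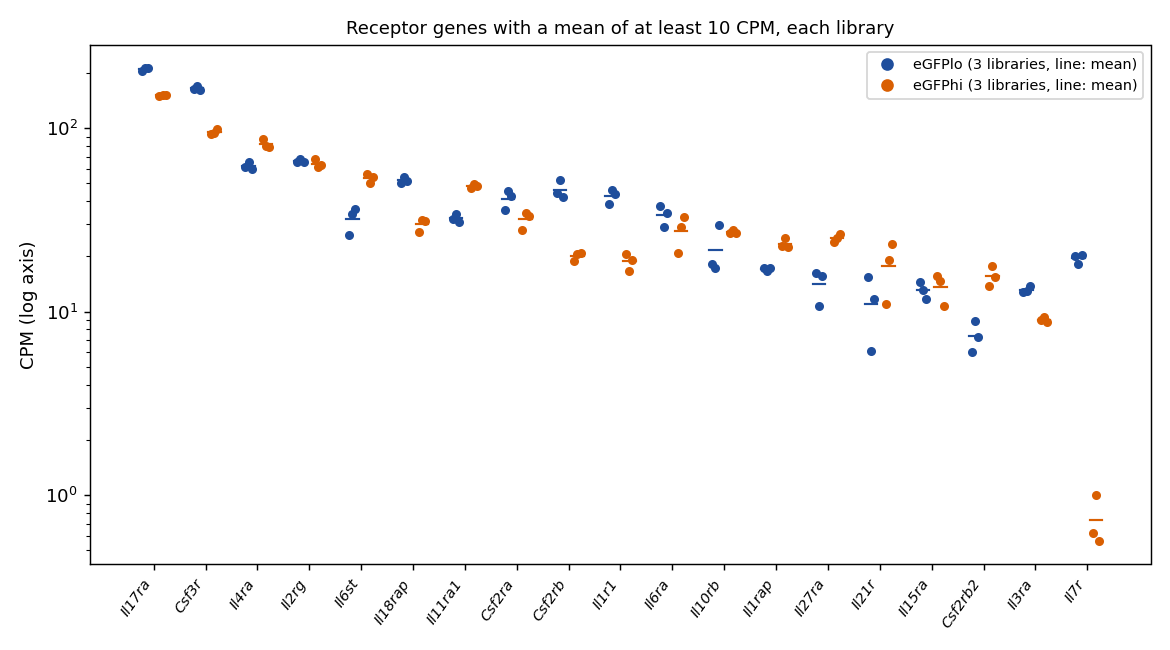
CPM per library (y axis, log scale) of the 19 receptor genes with a mean of at least 10 CPM, ordered by that mean; points are libraries and lines group means, eGFPlo in blue and eGFPhi in orange. Il17ra and Csf3r stand highest, and the eGFPhi points of Il7r at 0.565 to 0.999 CPM lie far below its eGFPlo points.

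The 2 chains of the IL-12 receptor also moved in opposite directions. Il12rb1, shared by IL-12 and IL-23, was 6.08, 7.06 and 7.20 CPM in eGFPlo and 11.2, 8.80 and 12.6 CPM in eGFPhi, 1.59-fold higher (log2 fold change 0.67, SE 0.16, adjusted p = 0.00698). Il12rb2, the chain specific to IL-12, was 13.02, 10.9 and 12.4 CPM against 7.21, 7.99 and 8.43 CPM, 1.53-fold lower (log2 fold change -0.61, SE 0.11, adjusted p = 0.00186). Neither gene's groups overlapped. Exons of Il12rb2 share 1519 bp with Serbp1 on the other strand, and the sources used here do not give the strand setting of the counting, so reads of these genes may not be separable.

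Il13ra1, which joins Il4ra in the receptor for IL-13, was counted only in eGFPlo, at 1.11, 1.26 and 1.05 CPM, with 50 counts against 0 in eGFPhi. Against a floor of 3 counts over the eGFPhi group it was at least 21.5-fold lower, with an adjusted p of 0.00019.

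Class II cytokine receptors bind IL-10, IL-20 and IL-22. Of 4 tested, 2 were higher, 1 lower and 1 not past the threshold, where 32.3% of all genes were higher and 31.7% lower. Il10ra, which binds IL-10, was 3.94, 4.68 and 4.32 CPM in eGFPlo and 3.65, 2.69 and 2.62 CPM in eGFPhi, 1.48-fold lower (adjusted p = 0.0209). This call was lost in DESeq2 (adjusted p = 0.101), with the assumed coefficient (0.113) and without eGFPlo replicate 2 or 3 or eGFPhi replicate 2 or 3 (0.0510 to 0.0717). Il10rb, the chain it shares with IL-22 and other ligands, was 18.1, 17.3 and 29.6 CPM against 26.7, 27.8 and 26.9 CPM. One eGFPlo library, replicate 3, lay above all eGFPhi libraries (log2 fold change 0.31, SE 0.19, adjusted p = 0.190), and without it the log2 fold change was 0.62 and the adjusted p 0.0006. Its exons share 569 bp with Gm21970 on the same strand.

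Il20rb, a chain for IL-20 and related ligands, was 2.06, 2.94 and 3.43 CPM in eGFPlo and 5.07, 4.80 and 4.26 CPM in eGFPhi, 1.64-fold higher (adjusted p = 0.0133). Its partner Il20ra was below the filter with 3 counts against 10, a ratio of 2.59 with a counting interval of 0.666 to 14.6. Il22ra2, a soluble IL-22 binding protein, was 0.942, 1.26 and 1.05 CPM against 1.34, 1.84 and 2.41 CPM, 1.75-fold higher (adjusted p = 0.0278). The Il22ra2 call was lost in DESeq2 (adjusted p = 0.152), with the assumed coefficient (0.0502) and without eGFPlo replicate 1 or 3 or eGFPhi replicate 2 or 3 (0.0595 to 0.0938).

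In the IL-17 family 3 of 4 tested genes were lower and 0 higher, where 31.7% of all genes were lower and 32.3% higher. Il17ra (ENSMUSG00000002897, chromosome 6, 120463247 to 120487559, plus strand), the chain shared by IL-17 ligands, was 204, 211 and 212 CPM in eGFPlo and 150, 151 and 151 CPM in eGFPhi. The groups were tight and apart, and the gene was 1.39-fold lower (log2 fold change -0.47, SE 0.03, adjusted p = 5.15e-06, and 0.107 with the assumed coefficient). Il17rb, the IL-25 receptor chain, was 2.83, 6.92 and 6.92 CPM against 0.623, 0.538 and 1.18 CPM, 7.17-fold lower (log2 fold change -2.84, SE 0.43, adjusted p = 0.00081).

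Il17re, the IL-17C receptor chain, was 8.14, 8.67 and 11.2 CPM in eGFPlo and 6.32, 6.15 and 6.68 CPM in eGFPhi, 1.47-fold lower (adjusted p = 0.0101, and 0.0807 with the assumed coefficient). Il17rc, which pairs with Il17ra for IL-17A, was 1.33 to 1.88 CPM against 1.39 to 2.19 CPM and not past the threshold (adjusted p = 0.391). Il17rd was below the filter with 14 counts in eGFPlo, 0 of them in replicate 2, and 0 in eGFPhi. Against the floor it was at least 6.01-fold lower, and it was not tested.

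Chains that several ligands share were set beside each other after their values were seen. Of Il2rg, Il4ra, Il6st, Il1rap, Il12rb1, Il10rb, Csf2rb and Il17ra, 4 were higher, 2 lower and 2 not past the threshold. Among all genes tested, 32.3% were higher and 31.7% lower. The choice is not complete: Il2rb and Il7r also serve further ligands, were left out and were both lower. Il4ra is counted here as shared and also serves below as the ligand-binding chain for IL-4. Per kilobase in eGFPlo, the shared chain was scarcer for GM-CSF and IL-11, where it stayed so in eGFPhi. In eGFPlo it was also scarcer for IL-6 (ratio to Il6ra 0.542 to 0.912), IL-1 (ratio to Il1r1 0.202 to 0.251) and IL-12 (ratio to Il12rb2 0.432 to 0.598). For IL-27 the mean of Il6st was below that of Il27ra in eGFPlo (2.90 and 4.06) and in eGFPhi (4.82 and 7.21), with eGFPlo ratios up to 1.0. In eGFPhi the ratio was above 1 for IL-6 and for IL-12 (1.02 to 1.44) and still below 1 for IL-1. Which chain is scarcer depends on the exon lengths used. In mean CPM, Csf2rb was above Csf2ra in eGFPlo (46.3 and 41.4). Il6st was above Il11ra1 (53.5 and 48.4) and Il1rap above Il1r1 (23.4 and 18.8) in eGFPhi. Il6st was above Il27ra in eGFPlo (32.1 and 14.2) and in eGFPhi (53.5 and 25.2). For IL-12 the order was the same in CPM in every library. For IL-6 the order of the means was the same, but the eGFPlo means were close (32.1 for Il6st and 33.7 for Il6ra). In CPM, Il6st was above Il6ra in eGFPlo replicate 2 (34.0 and 29.1) and replicate 3 (36.3 and 34.6). The reservations given above for Il11ra1 and Il12rb2 apply to their ratios too. Where both chains rose, the ratio ranges overlapped: Il6st to Il11ra1 was 0.330 to 0.474 in eGFPlo and 0.407 to 0.478 in eGFPhi, and Il6st to Il27ra 0.508 to 1.0 and 0.629 to 0.734. The ratio of Csf2rb to Il3ra went from 1.24 to 1.65 in eGFPlo to 0.860 to 0.969 in eGFPhi, and that of Csf2rb to Csf2ra from 0.390 to 0.486 to 0.237 to 0.268. For the third pair of Csf2rb, with Il5ra, the ratio was 6.57 to 11.2 in eGFPlo and 14.7 to 39.7 in the 2 eGFPhi libraries with Il5ra counts. For IL-4 the ratio of Il2rg to Il4ra went from 2.59 to 2.72 down to 1.93 to 2.0.

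**Figure D4:**
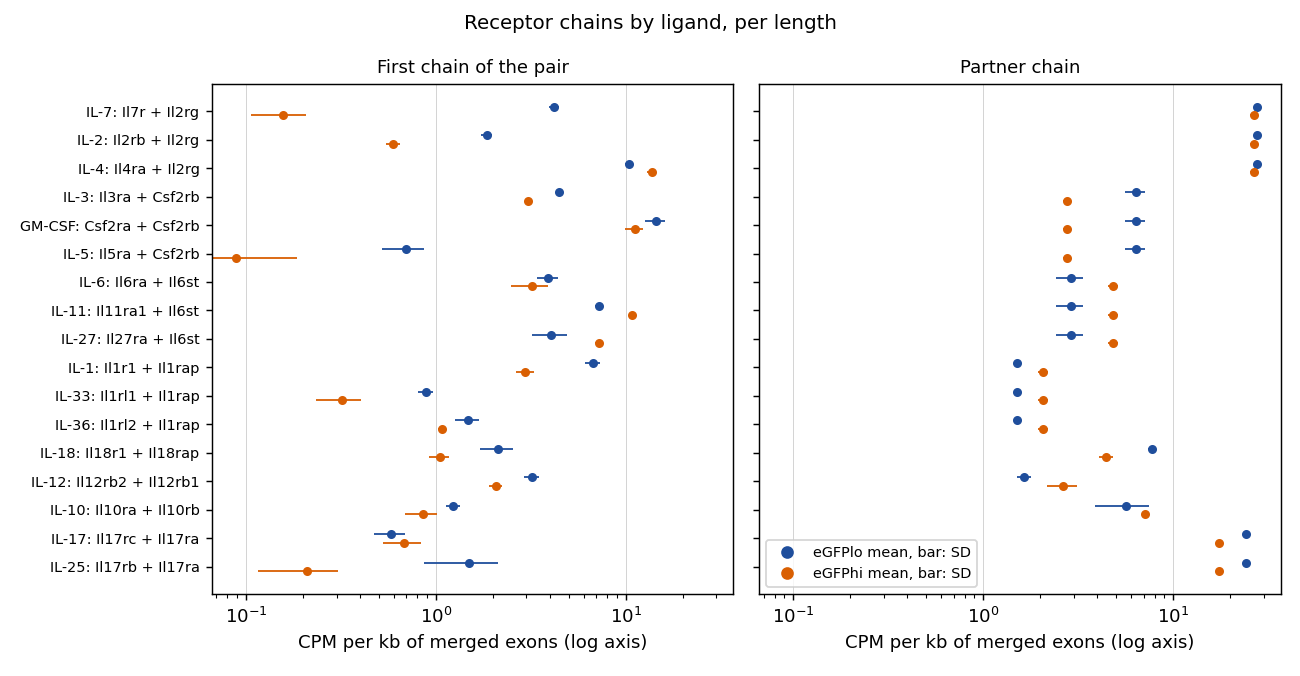
Mean CPM per kilobase of merged exons (x axes, log scale, bars: SD over 3 libraries) of the first chain of each receptor pair (left) and of its partner (right), eGFPlo in blue and eGFPhi in orange; the lower bar of Il5ra in eGFPhi runs past the axis because 1 library is at 0. For IL-7 the first chain drops from 4.19 to 0.156 while its partner Il2rg stays at 27.6 and 26.8.

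Promoters were found in RefSeq for 35 of the 43 symbols, 43 promoters in all. TTCNNNGAA, the core of STAT sites, which reads the same on both strands, occurred in 6 of the 43 (13.95%) and in 8.30% of 32851 promoters of the same length. Of the 6, 5 belong to lower genes (Il7r, Il12rb2, Il18r1, Il1r2 and Il31ra) and 1 to a higher one (Csf2rb2). These are 5 of 21 promoters of lower genes and 1 of 12 of higher genes, a split that was not tested. The PU.1 pattern GAGGAA occurred in 14 receptor promoters (32.6%) and in 28.3% of all promoters. AGATAA, the core of sites for GATA factors, was found in 6 of the receptor promoters (13.95%) and in 11.2% of the whole set. The E-box CACCTG, bound by basic helix-loop-helix factors, was found in 7 (16.3%) and in 20.2%. Both strands were searched, and a PU.1 match on the opposite strand can overlap a STAT match. These are letter matches, given as a description.

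Genes around the receptors were counted from lists of ligands, other receptors and signalling proteins. Of 87 listed genes 71 were in the table and 67 tested, of which 33 were higher, 13 lower and 21 not past the threshold (17 higher and 8 lower with the assumed coefficient). The main counts are 49.3% and 19.4% of the 67, beside 32.3% and 31.7% of all genes tested. With the assumed coefficient, 20.1% of all genes were higher and 16.5% lower. Ligand transcripts were mostly scarce: 16 of 30 were in the table, and of 13 tested 5 were higher and 4 lower. Il7, the ligand of Il7r, looked at after its values were seen, was 0.771, 1.19 and 1.16 CPM in eGFPlo and 6.32, 4.34 and 5.60 CPM in eGFPhi, 5.01-fold higher (adjusted p = 8.42e-05), opposite in direction to its receptor. Il18, also opposite to its receptor chains, was 4.54, 4.12 and 3.65 CPM against 11.2, 10.2 and 9.50 CPM (2.51-fold higher, adjusted p = 7.19e-05). Ebi3, a subunit of IL-27, rose 2.12-fold (adjusted p = 2.27e-05) as Il27ra did. Osm, which signals through gp130, was 12.7, 14.6 and 14.8 CPM against 5.07, 3.57 and 3.08 CPM (3.70-fold lower, adjusted p = 6.61e-05).

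Among gp130 partners outside the naming rule, a pair was counted in 1 group each: Lifr, the leukaemia inhibitory factor receptor, had 89 counts in eGFPlo and 0 in eGFPhi, and Osmr, the oncostatin M receptor, had 0 and 78. Lifr was at least 38.2-fold lower (adjusted p = 0.000101) and Osmr at least 20.2-fold higher (adjusted p = 0.00224), against a floor of 3 counts over the group. Both were chosen after their values were seen. Crlf2, which joins Il7r in the receptor for TSLP, was 1.37-fold higher (adjusted p = 0.000318) where Il7r fell.

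Receptors for other growth factors of stem cells moved in both directions. Kit, the stem cell factor receptor, was 1.45-fold higher (adjusted p = 3.16e-07). Flt3, the receptor of multipotent and lymphoid progenitors, was 165, 166 and 169 CPM against 77.6, 69.0 and 73.3 CPM (2.28-fold lower, adjusted p = 7.33e-07). Csf1r, the macrophage growth factor receptor, was 2.33-fold lower (adjusted p = 8.16e-05), and all 6 tested monocyte markers were lower (102 to 124 CPM in eGFPlo and 23.1 to 26.8 CPM in eGFPhi). The part of monocytic cells in the Csf1r difference was not tested.

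Downstream of the receptors, 9 of 11 JAK kinase and STAT genes were higher and 0 lower, by small steps, with a median log2 fold change of 0.30, where 32.3% of all genes were higher and 31.7% lower. Among them were Jak1 (1.27-fold, adjusted p = 5.85e-06) and Jak2 (1.30-fold, adjusted p = 9.24e-05). Which calls of this list and the next ones hold with the assumed coefficient is not given here. Over all lists together, the higher calls fell from 33 to 17 with it, so the small steps are to be read with that limit. Of 15 genes for inhibitors of cytokine signalling 8 were higher and 1 lower, among them Socs3, which binds gp130 and the G-CSF receptor (1.74-fold, adjusted p = 1.23e-06), and Cish, an inhibitor induced by STAT5 (1.86-fold, adjusted p = 0.000386). Of 12 adaptors and kinases of IL-1 and IL-17 signalling 4 were higher (33.3%) and 3 lower (25.0%), and of 9 STAT5 target genes 3 were higher (Ccnd2, Mcl1 and Cish) and 2 lower (Osm and Pim1), shares of 33.3% and 22.2%. The higher shares of these last lists are near that of all genes.

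**Figure D5:**
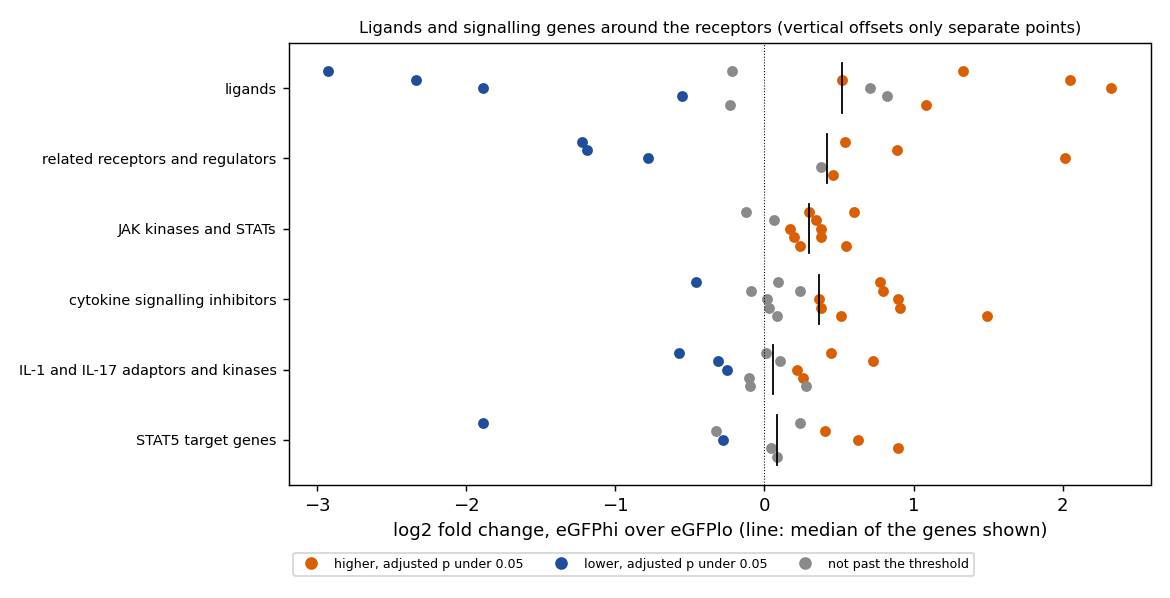
Log2 fold change of eGFPhi over eGFPlo (x axis) for tested genes of 6 lists around the receptors, leaving out genes with at most 3 counts in 1 group (Lifr and Osmr); orange is higher, blue lower and grey not past an adjusted p of 0.05, and black lines mark list medians. No JAK or STAT gene is called lower, and ligands spread widest, from Il10 at -2.92 to Il7 at 2.33.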

How the data were processed

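Total RNA of 3 eGFPlo and 3 eGFPhi LT-HSC samples was sequenced as paired-end libraries from a stranded poly-A kit, per the labels' protocols. The submitters' processing notes name CASAVA 1.8, HISAT2, StringTie and edgeR, and the builds hg38 and GRCm38, without roles. The sources used here do not name the read counter or its strand setting. The authors deposited a table of raw read counts for each library, as its headers name them, together with FPKM values, which were used only as an alternative. The receptor genes and all gene lists were chosen with earlier results of these data known.

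The analysis used edgeR 4.0.16 under R 4.3.3, with filterByExpr defaults (minimum count 10, minimum total 15), TMM factors and a quasi-likelihood test of the group. Benjamini-Hochberg adjustment ran over 18081 genes, with calls at 0.05. The kept genes hold 99.7 to 99.9% of each library's counts. CPM per kilobase divides by the merged exons of GENCODE gene models on GRCm38. Genes with 0 counts in a group are given bounds against 3 counts over the group, and those with 1 to 3 a ratio with an exact binomial 95% interval; both cover counting error only. Shared 50-base words, coding sequences and promoter patterns were computed in Python 3.11.15 with Biopython 1.88.

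Values per library are given for called receptor genes that average 1 CPM or more and for uncalled ones that average 10 CPM or more; of the lists, Kit, Flt3, Csf1r and the genes with the smallest p; any other gene is said to be chosen after its values were seen or is a chain that pairs with a named one. Some genes this rule selects are not reported here. Alternatives were upper-quartile or RLE factors, no filter, a filter of 5 CPM in 3 libraries, DESeq2 1.42.0, limma-voom (limma 3.58.1), limma on log2 of FPKM plus 1, the replicate number as a block, an assumed coefficient of variation of 0.2 with edgeR's likelihood ratio test, and leaving out each library. The steps were tested on simulated data.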

Additional observations from a re-analysis of the deposited data

How the results depend on the processing

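The count of higher receptor genes was 13 and fell to 8 with a filter of 5 CPM in 3 libraries, under which 14 receptor genes were not tested; leaving out 1 library gave 10 to 13. The count of lower ones was 21, and 18 to 21 with 1 library left out. With that stricter filter it was 14, and with an assumed coefficient of variation of 0.2 it was 14 as well. Of the genes around the receptors, 33 were higher and 13 lower. With the assumed coefficient these counts were 17 and 8, and with 1 library left out 33 to 36 and 13 to 14. Of the 34 calls, 22 held in every one of the 15 settings in which the gene was tested, and 10 were lost with the assumed coefficient. Direction was kept by 40 of 41 genes. The exception was Il15ra, not past the threshold at a log2 fold change of 0.06, which was -0.0199 without eGFPlo replicate 3, -0.0199 without eGFPhi replicate 1 and -0.0063 without eGFPhi replicate 2; leaving out each library gave -0.0199 to 0.2169. The cause was not tested. Libraries of different groups with the same number did not deviate together (r = -0.0133, 0.000555 and -0.0108 across genes). Such correlations cannot show whether these libraries came from the same mice, which the sources used here do not give. The labels state no pairing, so the main test did not pair them. With the replicate block, 13 receptor genes were higher and 20 lower, and 34 and 14 of the surrounding genes; Il10ra lost its call (adjusted p = 0.0524). Depth limits the genes under 1 CPM: the call of Il9r (also lost with no filter, 0.0541, on FPKM, 0.0917, and in DESeq2, 0.161) rests on few reads.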
